A study of Caenorhabditis elegans with 2 samples.

Results

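The binding sites described here are places on the X chromosome of Caenorhabditis elegans where a GFP-tagged protein was recovered away from protein-coding genes and their promoters. They were taken by position alone from the pooled list of chromatin immunoprecipitation sequencing (ChIP-seq) calls. A call was a member if its summit lay on X, outside every protein-coding gene body, more than 1000 bp from every protein-coding transcription start site (TSS) and more than 200 bp from every tRNA, snoRNA and snRNA gene. The rule found 1320 members among 5332 calls on X and 30000 calls in all. The irreproducible discovery rate (IDR) set, which the authors derived from the lists of both replicates and the pool, held 2.87% of the pooled calls, those of highest signal. Of the members, 59 were in it, and they are called IDR members below. "Intergenic" here refers to protein-coding genes: 6 IDR members had their summit in an annotated ncRNA gene and 2 in a pseudogene.

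The series had a single group of 2 biological replicates. Both were whole hermaphrodites at the L4 larval stage, collected 48 hours after synchronization as starved L1 larvae. All worms were of strain OP529, with the genotype unc-119(tm4063) III; wgIs529, which carries F10B5.3 fused at its C terminus to GFP and FLAG, and the immunoprecipitation used an antibody against GFP. F10B5.3 is also named btbz-2. Both replicates came from this 1 transgenic strain, so a property of the insertion cannot be told apart from a property of the protein, and whole animals mix all cell types. No untagged strain and no second condition was compared, the depth of sequencing is unknown, and the signal value is the authors' own per call on an unstated scale.

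Worm hermaphrodites have a pair of X chromosomes and males a single X. The dosage compensation complex, a condensin-like machine that acts with SDC-2 and its partner proteins, loads onto both X chromosomes of the hermaphrodite and lowers their transcription. It loads at recruitment sites on X, known as rex sites, from which it spreads along the chromosome. Many rex sites carry a short sequence that is enriched on X, the MEX motif. Its core, GCGCAGGG, was the word searched here. The coordinates of known rex sites were not used here, so the members were set beside that word and not beside a map of the sites.

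The sequences that carry the main observation are the core matches of the strongest members. Of the 20 members of highest signal, 15 held the core within 50 bp of the summit on either strand with at most 1 mismatch, and 6 of these held it exactly. Each match is given below in order of the member's signal, 5′ to 3′ on the strand of the match in the ce11 build, with the 8 core positions in capitals and 10 flanking bases on either side. A substitution names the base of the core, its position counted from 1 at the 5′ end of the core, and the base at the site.
summit 11094217, exact core, X:11094226-11094233 on the minus strand: ggaaccattcGCGCAGGGacacctcact
summit 4209300, exact core, X:4209266-4209273 on the minus strand: tgccgctatcGCGCAGGGacacctcttt
summit 806708, exact core, X:806674-806681 on the plus strand: tgcgattatcGCGCAGGGgtgtttgttg
summit 13700874, core with C4A, X:13700904-13700911 on the minus strand: agacatttagGCGAAGGGcaatagtatt
summit 16682107, core with G8A, X:16682099-16682106 on the minus strand: gaacaccatcGCGCAGGAacattgggca
summit 9465841, core with C4A, X:9465883-9465890 on the plus strand: gaaaatttagGCGAAGGGagagatactg
summit 16056570, core with G1C, X:16056533-16056540 on the minus strand: ttcaaatttgCCGCAGGGagttgcacat
summit 11937545, core with G1A, X:11937541-11937548 on the plus strand: ggaggtacaaACGCAGGGaagagaatta
summit 8036470, exact core, X:8036435-8036442 on the plus strand: tttttccatcGCGCAGGGaacccttcga
summit 1627129, core with C4A, X:1627106-1627113 on the plus strand: ttctcccatcGCGAAGGGatactttcgc
summit 17544527, core with C4A, X:17544518-17544525 on the plus strand: attttttattGCGAAGGGagaataacaa
summit 13514561, exact core, X:13514558-13514565 on the plus strand: tacctttatcGCGCAGGGatattgaaat
summit 15736660, core with C4A, X:15736670-15736677 on the minus strand: attacacataGCGAAGGGgcaacaatga
summit 2364918, exact core, X:2364899-2364906 on the minus strand: aaataattaaGCGCAGGGatatatagta
summit 727929, core with G8C, X:727879-727886 on the plus strand: ggcgcgtagtGCGCAGGCtgatcaatcg
The match listed for each member is its best, with the fewest mismatches and then the closest to the summit. Among these best matches the commonest difference was at core position 4, with C4A in 5 of the 15 members. Of the 6 exact cores listed, 5 were preceded by the bases tc, all but that at 2364918. Over the 8 exact cores of all IDR members, the base before the core was C at 6, the base before that was T at 5, and the base after the core was A at 6.

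The pair of members with the highest signals held more than 1 match each. The bases within 50 bp of each summit are shown on the plus strand, with every match of at most 1 mismatch in capitals, so that a match on the minus strand is read as its reverse complement (CCCTGCGC for the exact core).
summit 11094217, X:11094167-11094267, plus strand: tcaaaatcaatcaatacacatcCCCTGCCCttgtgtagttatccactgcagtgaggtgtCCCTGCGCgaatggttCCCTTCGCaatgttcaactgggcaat
summit 4209300, X:4209250-4209350, plus strand: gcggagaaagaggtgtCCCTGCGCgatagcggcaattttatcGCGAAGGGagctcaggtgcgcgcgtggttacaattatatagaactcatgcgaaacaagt
The member at 11094217 held 3 matches in this window and the member at 4209300 held 2. At 11094217 the exact core sat between a pair of matches with a mismatch.

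The strongest of the X intergenic sites were among the strongest nuclear calls of the experiment. They made up 6 of the top 10 nuclear calls, 11 of the top 20, 15 of the top 50 and 26 of the top 200. Members were 1320 of the 30000 pooled calls, of which 23 were mitochondrial. Other X calls shared the top ranks, with signals of up to 961 at promoters and 841 inside genes. The member at X:11093875-11094470 had a signal of 466.9 in replicate 1 and 644 in replicate 2, and 1110.2 in the pooled list. The member at X:4209006-4209550 had 338 and 594 in replicates 1 and 2 and 926 after pooling. The member at X:806409-806966 had 368 and 538 in replicates 1 and 2 and 903 after pooling. All 3 stood at rank 28 or better in each replicate's own list. The 20 highest members ranged from 213 to 1110.2 in the pooled list and from 84.2 to 467 in replicate 1, and from 124 to 644 in replicate 2. They ranked from 21 to 182 in replicate 1 and from 18 to 154 in replicate 2, so all 20 would be inside a set of the IDR set's size taken from either list. The 20 were picked by pooled signal, which comes from both replicates, so these ranks are no independent measure.

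**Figure D1:**
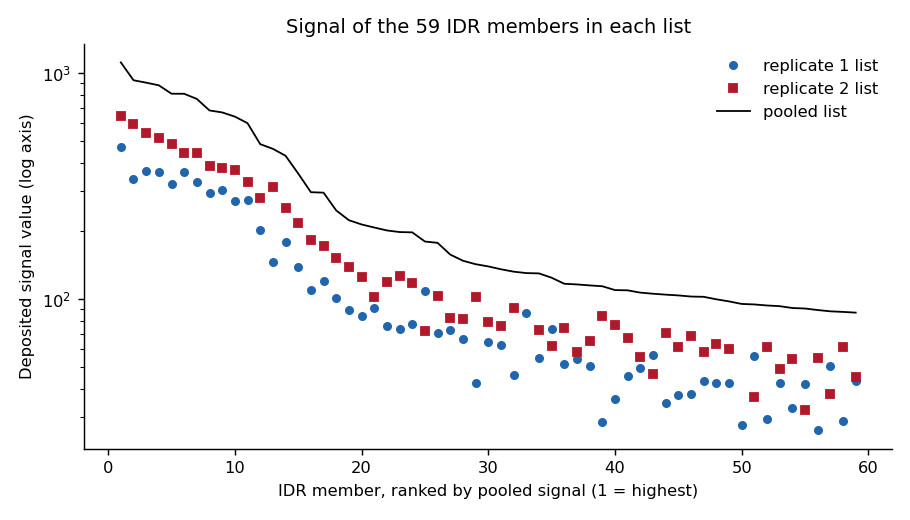
The deposited signal value (log axis) of the 59 IDR members, ordered along the horizontal axis by pooled rank, in the replicate 1 list (circles), the replicate 2 list (squares) and the pooled list (line). The order of the 20 highest was close in both replicates, and replicate 2 was the higher one in all 20 of them; 2 members had no replicate 2 summit and show a circle only.

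The genes nearest to the strong members were of several kinds. The member with its summit at 17544527 had a signal of 201 in replicate 1 and 279 in replicate 2 and lay 4112 bp from the TSS of hlh-29, a basic helix-loop-helix transcription factor gene. That at 13514561 had 145 in replicate 1 and 313 in replicate 2 and lay 3464 bp from col-185, a cuticle collagen gene. That at 15736660 had 178 in replicate 1 and 251 in replicate 2 and lay 3966 bp from srg-64, a chemoreceptor gene. The farthest of the 20 was at 13700874, 6033 bp from K02D3.1, with signals of 365 in replicate 1 and 516 in replicate 2. The member at 727929, 1961 bp from sli-1, a ubiquitin ligase gene that tempers growth factor signalling, was among the lower ones, with 89.5 in replicate 1 and 138 in replicate 2. The 20 highest members were nearest to 20 different genes and none had an annotated non-coding gene or pseudogene at its summit, which allows a share of up to 15%.

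Of the other members among the 20 highest, those at 16682107, 9465841 and 16056570 had pooled signals of 807, 806 and 765. Those at 11937545, 1627129 and 12363192 followed with 680, 639 and 598. The member at 1909558 had 358, that at 16206040 had 296, that at 16929816 had 295, that at 2364918 had 246 and that at 1389576 had 213. The 5 of the 20 without a core-like match were those at 12363192, 1909558, 16206040, 16929816 and 1389576, and 4 of them were below 400.

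At the other end, the 3 weakest IDR members lay 6458 bp from sax-3, a Robo-family guidance receptor gene, 3435 bp from the Argonaute gene alg-1 and 4737 bp from the transcription factor gene egrh-1. Their pooled signals were 88.1, 87.5 and 86.9. The one near sax-3 had 50.3 in replicate 1 and 37.9 in replicate 2, that near alg-1 had 28.7 in replicate 1 and 61.5 in replicate 2, and that near egrh-1 had 43.4 in replicate 1 and 45 in replicate 2. None of the 3 held a core-like match. The 3 highest members outside the set had pooled signals of 85.1, 84.6 and 84.6, so the signal has no step at the edge of the IDR set. The first lay 7031 bp from the kinase gene mig-15, with 30.7 in replicate 1 and 45 in replicate 2, and the second 2259 bp from F52G3.1, with no summit in replicate 1 and 47.2 in replicate 2. The third, with its summit at 16682309 and signals of 30.8 in replicate 1 and 40 in replicate 2, lay in the same called interval as the strong member at 16682107.

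A larger share of the X intergenic calls was in the IDR set than of the autosomal calls chosen by the same rule. It was 59 of 1320 members (4.47%, 95% Wilson interval 3.48 to 5.72) against 68 of 3761 autosomal intergenic calls (1.81%, 1.43 to 2.29), and 2.87% over all pooled calls. The difference was 2.66 percentage points with a 95% Newcombe interval of 1.56 to 3.97. Against X calls inside genes, of which 17 of 1786 (0.952%) were in the set, the difference was 3.52 points (2.38 to 4.82). Against X promoter calls, with 67 of 1984 (3.38%), it was 1.09 points, and the interval of -0.237 to 2.53 included 0. These intervals treat calls as independent and cover counting error only, the variation between replicates is not in them, and no p-value was computed.

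**Figure D2:**
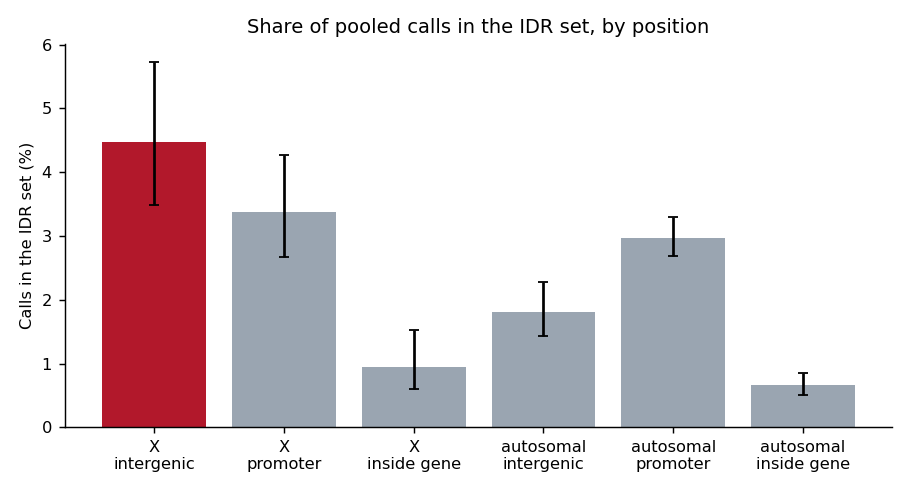
Share of pooled calls in the IDR set (vertical axis, %) by the position of the summit, with 95% Wilson intervals as bars. The X intergenic bar, at 4.47%, stands above the autosomal intergenic bar at 1.81% with no overlap of the intervals, and its interval overlaps that of the X promoter bar at 3.38%.

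The medians over all calls were close. The median signal was 27.4 over all members and 26.7 over all autosomal intergenic calls. Among IDR calls the median was 139 for members against 104 for autosomal intergenic calls, and the maximum was 1110.2 against 332. High signal was not limited to the intergenic calls of X: X promoter calls had an IDR median of 119.9 and a maximum of 961, and X calls inside genes had an IDR median of 125 and a maximum of 841. Autosomal promoter calls had an IDR median of 124 and a maximum of 769. The members' rule left 5.54 Mb of X eligible and 18.8 Mb of the autosomes. Within that territory X had 238 calls and 10.6 IDR calls per Mb, and the autosomes had 200 calls and 3.62 IDR calls per Mb. GC content also moved with the set: the median within 50 bp of the summit was 46.5% in IDR members, 33.7% in the other members and 49.5% in autosomal intergenic IDR calls, and its part in the shares was not tested.

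The MEX core was more frequent at the IDR members than at autosomal intergenic IDR calls, at the other members and in the members' own flanks. It was present, exactly, within 50 bp of the summit in 8 of 59 IDR members (13.6%, 7.03 to 24.5), against 0.107% of all pooled calls. None of the 68 autosomal intergenic IDR calls held it, which allows a share of up to 4.41%, and 2 of the 1261 members outside the IDR set (0.159%) did. The differences were 13.6 points (5.12 to 24.5) against the autosomal IDR calls and 13.4 points (6.86 to 24.4) against the other members. Among the upper 50% of the IDR set by signal, 7 of 35 members held it against 0 of 17 autosomal intergenic calls, and the interval of that difference, -0.95 to 35.9 points, included 0. In the flanks of the same IDR members, 200 to 250 bp from the summit, the core was found in 0 of 59, which allows up to 5.08%. The word was chosen with earlier results of these data known, so these shares and intervals are a description.

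With 1 mismatch allowed the core was in 27 of 59 IDR members (45.8%, 33.7 to 58.3), against 2.57% of all pooled calls. It was in 4 of 68 autosomal intergenic IDR calls (5.88%), a difference of 39.9 points (25.2 to 53), and in 35 of 1261 other members (2.78%), a difference of 43 points (30.9 to 55.6). The flanks of the IDR members held such a match in 2 of 59. The X promoter IDR calls held it in 8 of 67 (11.9%) and the X IDR calls inside genes in 4 of 17 (23.5%). The difference of the members from the promoter calls was 33.8 points (18.2 to 47.7), and that from the calls inside genes was 22.2 points with an interval of -4.39 to 41 that included 0. The exact core was in 8 of 59 IDR members, in 4 of the 17 X IDR calls inside genes, a difference of -9.97 points (-34.6 to 7.8), and in 2 of the 67 X promoter IDR calls. Among the upper 50% of the IDR set, 22 of 35 members (62.9%) held a match of at most 1 mismatch, against 2 of 17 autosomal intergenic calls (11.8%).

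Core-like matches were also counted within ranges of GC content. Among summits with 35 to 45% GC, 11 of 15 IDR members held a core-like match, against 1 of 22 autosomal intergenic IDR calls and 10 of 335 other members. Above 45% GC it was 14 of 33 IDR members, against 3 of 39 autosomal IDR calls and 22 of 249 other members. Below 35% it was 2 of 11 IDR members, against 0 of 7 autosomal IDR calls and 3 of 677 other members. In each range the share was highest in the IDR members, although the lowest range has few calls. GC content was not matched within a range, and its part in the difference was not tested.

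Presence of the core fell off with signal rank. The share with at most 1 mismatch was 15 of 20 (75%, 53.1 to 88.8) in members 1 to 20, 10 of 30 (33.3%, 19.2 to 51.2) in members 21 to 50 and 2 of 9 (22.2%, 6.32 to 54.7) in the rest of the IDR members, whose interval overlaps both others. The lower groups include all 5 calls on the shoulder of a stronger member that are described below. Only that at 16206241 held a match. It is in members 21 to 50, whose share is not lowered by counting the shoulder calls there. Those at 17544726 and 1909760 are in the rest of the IDR members and held none, so counting them lowers the share of that group. Outside the IDR set it was 4.75%, 1.59%, 3.17% and 1.59% in 4 successive groups of 315 or 316 members by signal, against 2.57% of all pooled calls. Exact cores were in 6 of the 20 highest, in 2 of the next 30 and in 0 of the last 9. The median pooled signal was 564 in the 8 IDR members with an exact core, 201 in the 19 with a mismatch and 111 in the 32 with no match, with overlapping ranges of 114.6 to 1110.2, 91.1 to 879 and 86.9 to 598.

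**Figure D3:**
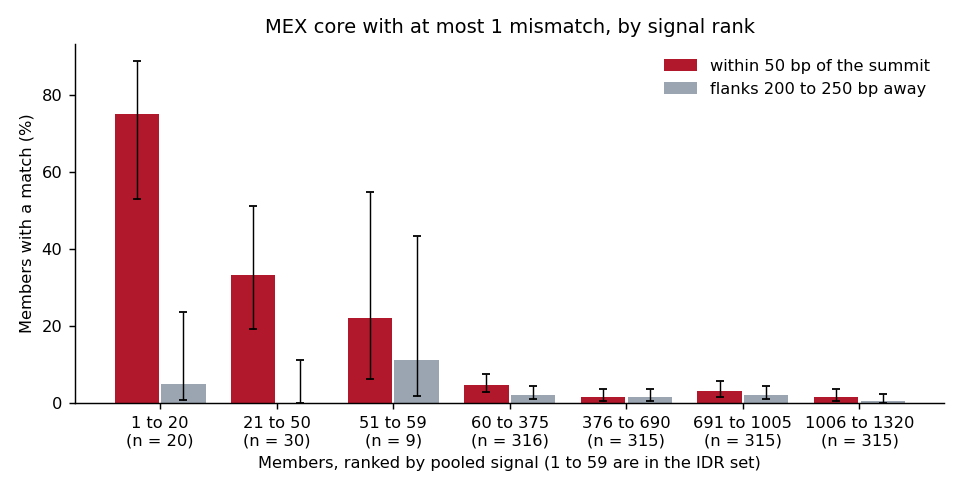
Share of members (vertical axis, %) that hold the MEX core with at most 1 mismatch within 50 bp of the summit (left bars) or in flanks 200 to 250 bp away (right bars), by pooled signal rank, with 95% Wilson intervals. The share at the summit is 75% in members 1 to 20 and under 5% in each of the 4 groups outside the IDR set, while the flanks stay between 0% and 11.1%.

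Matches lay close to the summits. Within 300 bp of the 59 IDR summits there were 59 matches of at most 1 mismatch, of which 38 were within 50 bp and 19 within 25 bp. Around the 68 autosomal intergenic IDR summits there were 18, with 5 within 50 bp. Strong members also held more of them: 10 of the 20 highest had 2 or more matches within 250 bp of the summit, against 6 of the other 39 IDR members, 15 of 1261 members outside the set (1.19%) and 4 of 68 autosomal IDR calls (5.88%).

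**Figure D4:**
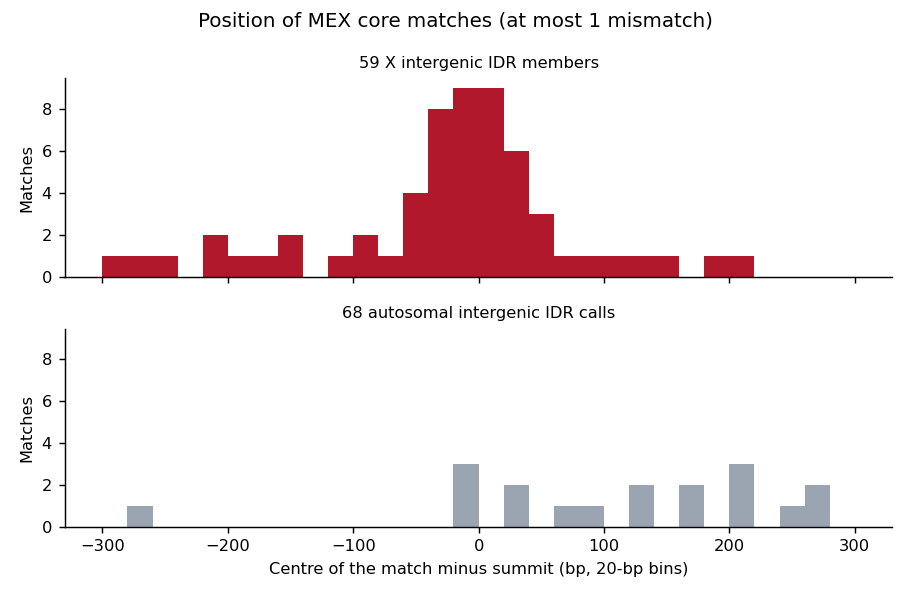
Number of MEX core matches with at most 1 mismatch (vertical axis) by distance of the match centre from the summit (horizontal axis, bp, 20-bp bins), for the 59 X intergenic IDR members (top) and the 68 autosomal intergenic IDR calls (bottom). Of the 59 matches at members 38 are within 50 bp of the summit, against 5 of 18 at the autosomal calls; matches near neighbouring summits about 200 bp apart are counted from each.

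The position with the most substitutions was the fourth base of the core. Of the 19 IDR members whose best match had a mismatch, 9 held C4A and 1 held C4G, and no other substitution occurred more than once. The word GCGNAGGG, in which N is any base and which was chosen after these values were seen, was in 18 of 59 IDR members, in 0 of 68 autosomal intergenic IDR calls and in 8 of 1261 other members, against 0.423% of all pooled calls. In a count of all 8-letter words, GCGAAGGG was in 11 IDR members at the summit and in 1 in the flanks, in 0 of the autosomal intergenic IDR calls and in 0.143% of all pooled calls. The word of highest count among those leading in the autosomal calls, AGACGCAG, was in 1 of 59 IDR members, against 8 of 68 autosomal intergenic IDR calls and 1.36% of all pooled calls. Some of the autosomal leading words did occur at members, up to CTCTCTCC in 4 of 59 IDR members, against 6 of 68 autosomal calls and 0.763% of all pooled calls. These words were picked for their counts at these summits, so their shares are a description.

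Of the other words searched as a comparison, GAGAGAGA, a run bound by GAGA-type factors in flies, was more frequent in both IDR sets than in the pooled list. It was in 5 of 59 IDR members (8.47%) and 5 of 68 autosomal intergenic IDR calls (7.35%), against 1.35% of the other members and 1.42% of all pooled calls. CACACACA was in 2 members (3.39%) and 3 autosomal calls (4.41%), against 1.12% of all pooled calls. The AP-1 word TGACTCA was in 2 members (3.39%) and 2 autosomal calls (2.94%), against 1.02% of all. The GATA-type word AGATAA was in 6 members (10.2%) and 5 autosomal calls (7.35%), against 5.33% of all. The E-box CACGTG was in 1 member (1.69%) and 2 autosomal calls (2.94%), against 2.23% of all. TATAAA and CCAAT had shares below those of the pooled list. TATAAA, the TATA box word, was in 4 members (6.78%) and 2 autosomal calls (2.94%), against 13.1% of all. CCAAT was in 8 members (13.6%) and 8 autosomal calls (11.8%), against 19.5% of all. In the flanks it was in 20 of the 59 members (33.9%) and 17 of the 68 autosomal calls (25%), against 242 of 1261 other members (19.2%). These counts are small, and no difference between them was tested.

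Most copies of the core on X had no pooled summit within 50 bp. Most calls were 450 bp wide, so a copy farther from a summit can still lie inside a called interval, and such copies were not counted. The X territory open to the rule held 34 exact cores, or 6.14 per Mb, against 54, or 2.88 per Mb, on the autosomes. Of the X copies, 11 lay within 50 bp of a pooled summit and 9 within 50 bp of an IDR summit (26.5%, 14.6 to 43.1). These 9 lay at the 8 IDR members with an exact core, of which that at 806708 held 2 copies. Of the autosomal copies, 4 lay near a pooled summit and 0 near an IDR summit, which allows up to 5.56%. Over the whole chromosomes the counts were 81 copies on X with 16 at IDR summits, against 233 on the autosomes with 1, which lay at a small RNA gene.

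The IDR members were spread over the length of X. Each of the 18 bins of 1 Mb held at least 1 of them, up to 8, and 12 bins held 1 of the 20 highest or more. In 3 equal stretches of X, from the left end, there were 21, 13 and 25 IDR members, or 11, 7.98 and 12.5 per Mb of eligible sequence, while all members stood at 235.3, 247 and 234 per Mb. These counts include the calls on the shoulder of a stronger member that are described below. Those at 11937747, 16206241, 16930017 and 17544726 lie in the last stretch. That at 1909760 lies in the first, in the bin with 8. The median gap between neighbouring IDR summits was 204111 bp (95% order-statistic interval 132754 to 292363), and the widest was 1207339 bp, between summits at 8048825 and 9256164. Among the 20 highest the median gap was 476067 bp and the widest, between 4209300 and 8036470, was 3827170 bp.

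**Figure D5:**
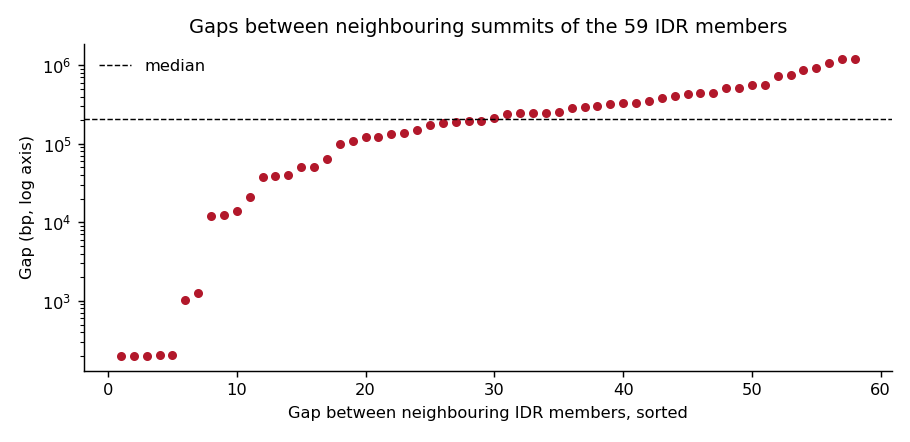
The 58 gaps between neighbouring summits of the IDR members, sorted, on a log axis in bp; the dashed line is the median, 204111 bp. A group of 5 gaps of 199 to 202 bp lies apart from the rest, which run from 1012 to 1207339 bp.

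The 5 shortest gaps belonged to calls on the shoulder of a stronger member. The IDR members at 16206241, 11937747, 16930017, 17544726 and 1909760 lay 199 to 202 bp from members with 2.71 or more times their signal, for example 109 at 11937747 against 680 at 11937545. Merging overlapping calls left 54 regions with a median gap of 244801 bp. The 5 overlap the interval of the stronger call and cannot be counted as separate sites, and of them only that at 16206241 held a core-like match of its own.

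A further pair of members shared sequence. The members at 17544527 and 17545738, 1211 bp apart, held the same 78 bases in opposite orientation, and both matched the core with C4A. Reads from such copies can be assigned to either place, so their signals of 483 and 177 are uncertain. Apart from these and the shoulder at 17544726, no IDR member held a 31-base word that occurs again in the genome, against 10 of 68 autosomal intergenic IDR calls and 112 of 1261 other members.

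The called widths differed between the strong members and the rest. The 20 highest had a median width of 467.5 bp (127 to 609), and 1 of them was 450 bp wide. Of the other 39 IDR members 33 were exactly 450 bp wide, as were 1258 of the 1261 members outside the set. The deposited −log10 q-value was 3.24 for all 59 IDR members, which was its ceiling, and ran from 0.0322 to 2.78 in the other members, so it did not order the strong ones.

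The replicates were closer for the members of high pooled signal than for the weaker ones, groups that the signal of the same replicates defines. All 59 IDR members had a summit within 100 bp in the replicate 1 list and 57 in the replicate 2 list; those at 17480161 and 5674525 had none there. Since the authors' IDR analysis read these lists, presence in both is no independent measure. Of the 59, 42 were among the highest calls of both lists, with as many calls taken from each list as the IDR set holds. Replicate 2 had the higher signal in 51 of the 57, with a median ratio to replicate 1 of 1.41, in lists whose own medians were 18.6 for replicate 2 and 17.3 for replicate 1. Over these 57 sites the log10 signals had a Pearson r of 0.933 and a Spearman rho of 0.842, and over the 20 highest 0.971 and 0.976; the sites share libraries and control. Over the 65 autosomal intergenic IDR calls found in both lists r was 0.478 and rho 0.167, in a narrower range of signal. Of the 1261 other members, 249 (19.7%) were found in both lists and 0 were among the highest calls of both by that measure, which allows up to 0.238%. Where found, these members had median signals of 19.9 in replicate 1 and 23.3 in replicate 2, against list minima of 12.5 and 12.8. How far the cut of the lists accounts for the missing summits was not tested.

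The distance threshold of the rule cut through strong calls. The IDR members nearest to a TSS were those at 1627129, 1008 bp from fbxb-58 with a signal of 639, at 16056570, 1025 bp from T27A8.7 with 765, and at 2364918, 1072 bp from T24D8.6 with 246. The X IDR calls between genes just outside the rule were at 16612477, 974 bp from ain-1 with a signal of 215, at 8740613, 940 bp from M02D8.2 with 86.7, and at 1627328, 809 bp from fbxb-58 with 164. The last lies in the same called interval as the member at 1627129. Over all IDR members the median distance to a TSS was 3307 bp (2297 to 3799), against 2562 bp (2442 to 2652) for the members outside the set.

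Of 15 genes of dosage compensation and of the X signal that sets it, 6 lie on X, and 2 of these were the nearest gene of a member. Being nearest to a member was not particular to these genes. The IDR members were nearest to 52 genes and the other members to 723, and the share over all X genes was not computed. The gene xol-1, the switch that the X signal keeps off in hermaphrodites, was nearest to 3 members. The IDR member at 8036470 lay 4843 bp upstream of it, with signals of 301.3 in replicate 1 and 378 in replicate 2 and the exact core listed above; the other members had pooled signals of 32.7 and 18.9. On the other side of xol-1, the IDR member at 8048825, nearest to C18A11.4, had 32.8 in replicate 1 and 54.4 in replicate 2 and held the core with C4G.

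The gene sdc-2, whose product directs the complex to X, had 1 member 1124 bp from its TSS with a pooled signal of 21.2, found in the replicate 2 list alone. Within 20 kb of the midpoint of ceh-39, an X signal gene, the IDR member at 1837892 had 50.4 in replicate 1 and 65 in replicate 2 and held an exact core; its summit lay in an annotated pseudogene. Members within 20 kb of the midpoints of sdc-1, sex-1 and fox-1 were all outside the IDR set, with the highest, beside fox-1, at 26.6 in replicate 1 and 50.2 in replicate 2.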

How the data were processed

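ChIP-seq calls of GFP-tagged F10B5.3 from 2 replicates were used in ce11. Per the deposited notes, the authors called peaks in each replicate and in the pooled alignments against a control alignment and made the IDR set from those lists. For the aligner, the caller and the IDR threshold, names and settings are not given in the sources used here. Signal per call and −log10 q-value are the authors' deposited values. Replicates 1 and 2 and the pool had lists of 22211, 27642 and 30000 calls, and the IDR set was the part of the pooled list with the highest signal. Reads were not used, so depth is unknown.

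Calls were classed with Ensembl release 115 (WBcel235, the ce11 assembly; sequences are from RefSeq's copy of it). Words were searched on both strands within 50 bp of each summit. Replicate summits were matched within 100 bp. Shares have 95% Wilson intervals, differences Newcombe intervals and medians exact order-statistic intervals, all counting error only (Python 3.11.15, SciPy 1.17.1); the steps were tested on simulated data. A count of 0 is given with the share 3 counts would make. Regions named were the 20 members of highest signal, the 3 weakest IDR members and the 3 strongest others; others named were chosen after their values were seen. Members, words and gene lists were chosen with earlier results of these data known. The alternatives moved the distance, the set size, the word, its window, the replicate, repeats and overlaps.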

Additional observations from a re-analysis of the deposited data

How the results depend on the processing

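Of 84 values recomputed under 15 settings, 73 stayed within the interval of the reported value (counts: within 1.5 times; differences: same sign and same side of 0), and 0 turned direction. With members over 2000 bp from a TSS there were 853 members and a median gap of 296203 bp. With only the upper 50% of the IDR set by signal there were 35 strong members (2.65% of all members) with a median signal of 246, 34 of them in both replicate lists; 7 held the exact core against 0 of 17 autosomal calls, and that difference, 20 points, had an interval of -0.95 to 35.9 that included 0. The core share of IDR members was 6.78% within 25 bp of the summit, 25.4% for the inner 6 letters, 45.8% with 1 mismatch and 48.1% with 1 mismatch and overlapping calls merged, a setting added after seeing the data. From a single replicate's list and as many of its highest calls as the IDR set holds, without replicate 2 or without replicate 1, the high share of members was 5.2% and 4.84%, its difference from autosomal intergenic calls 2.87 and 2.77 points, the core share 14.8% and 15.5% and the median gap 226568 and 196156 bp. No paired analysis was possible because the series has 1 group. Unknown depth and the unstated signal scale limit all signal values, and 59 IDR members limit the shares.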
